A study of Mus musculus with 4 samples.

Results

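The genes described here are those of the complement and blood coagulation systems, read by PRO-seq (precision nuclear run-on sequencing) in the liver of 14-day-old mice with and without *Hdac3*. Members were taken from a list of 41 symbols of plasma proteins and their receptor or inhibitors, and of each symbol's transcripts the one with the highest promoter-proximal reads on average was used. Of the 41, 40 were found by symbol among 20642 symbols in the table, each with 1 transcript, and all 40 belonged to the 12705 genes counted as transcriptionally active. The symbol *C1s1* was not found, but its older symbol *C1s* was, and that gene is given apart from the 40. The WT mice were *Alb-Cre*+ *Hdac3*+/+ and the KO mice were *Alb-Cre*+ with an *Hdac3* allele pair of fl/- or fl/fl, all on a C57BL/6 background. Both groups thus carried Cre under the albumin promoter, which is active in hepatocytes and their precursors, and where Cre acted was not tested. Each genotype gave 2 libraries (WT1, WT2, KO1, KO2), each from nuclei pooled from several mice, so p-values rest on the spread between such pools. The main test shares this spread over genes of like level, so a gene's standard error (SE) need not show its own spread. Where a pair of values is given for a genotype, replicate 1 comes first.

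Complement is a cascade of plasma proteases and binding proteins that marks microbes, releases small inflammatory peptides and assembles a pore in membranes. Coagulation is a second protease cascade, in which factors cut one another in turn until thrombin converts fibrinogen to fibrin, and the fibrinolytic proteins take the clot apart. Hepatocytes make most of the circulating proteins of both systems. Factor VIII is an exception, made in liver mainly by sinusoidal endothelial cells, and the C5a receptor is found on myeloid cells.

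PRO-seq maps engaged RNA polymerases. Of each gene, the promoter-proximal value counts reads in the fullest 50 bp window around the transcription start site (TSS), and the gene body value counts reads from further downstream to the end of the transcript. Values below are normalized reads, the recovered reads multiplied by the authors' factor of that library. Reads on genes ranged from 16628518 in KO2 to 26190040 in WT2. Genes were called when the limma adjusted p was below 0.05 and the log2 fold change (KO over WT) exceeded 0.6 in size. With 2 libraries against 2, an exact permutation test of a single gene cannot give a two-sided p below 0.33. *Hdac3* itself had gene body reads of 665 and 648 in the WT libraries and 609 and 582 in the KO libraries, a log2 fold change of -0.14 (SE 0.13, limma adjusted p = 0.41), so its reads do not check the genotypes, which were taken as labelled. Gene body reads of *Xist*, which is transcribed in females, were 445 and 1135 in the WT libraries and 688 and 196 in the KO libraries. The mix of sexes may thus have differed between pools, but the labels do not give it.

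Gene body transcription of the complement and coagulation genes was lower in KO liver. Of the 40 genes, 28 were called down and 1, *F8*, was called up, whereas 11.4% of all active genes were called down and 10.4% up. The median gene body log2 fold change of the 40 was -0.92, against -0.09 over all active genes. Summed over the 40 genes, WT libraries held 168247 and 150659 gene body reads and KO libraries 99568 and 95390.0, so that the KO sum was 0.611 of the WT sum. Both KO libraries lay below both WT libraries for 33 of the 40 genes and above them for 2, where all active genes gave 42.8% and 27.6%, and 36 had a log2 fold change below 0, where active genes gave 60.2%. Among the 19 complement genes 12 were called down and none up, and among the 21 genes of coagulation and fibrinolysis 16 were called down and 1 up. Without the filter on activity, when 20642 genes were tested, 12 of the 40 were called down and none up, where 2.86% of those genes were called down and 1.97% up. With single libraries left out, the median log2 fold change of the 40 ran from -0.97 to -0.86, against -0.14 to -0.04 over all active genes. With median-of-ratios scaling within gene bodies 9.37% of active genes were called down and 12% up, and 27 members were called down and 2 up. On recovered reads, 28 members were called down and 1 up both by edgeR (11.4% and 10.5% of active genes) and by DESeq2 (10.9% and 9.59%). The liver is a mixture of cells, and in such bulk nuclei fewer cells of a type and less transcription per cell cannot be told apart.

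**Figure D1:**
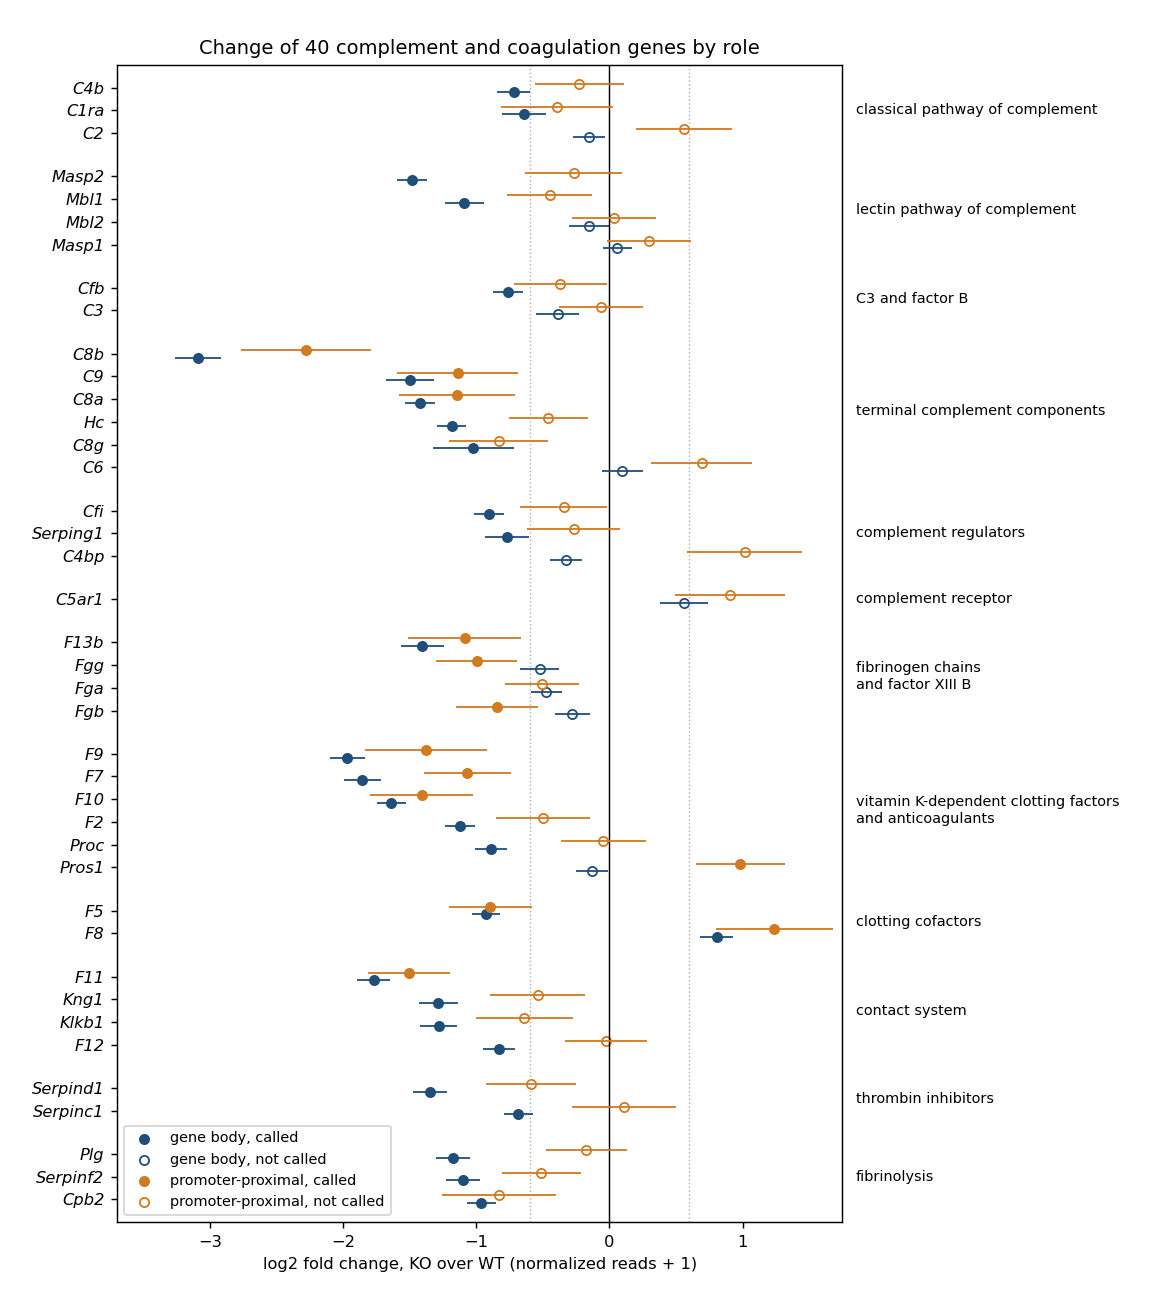
Log2 fold change (KO over WT) of the 40 genes in gene bodies (blue) and promoter-proximal regions (orange), grouped by role. Points are estimates from 2 libraries per genotype, bars are 1 standard error, filled points passed the call and dotted lines mark 0.6 in either direction. Gene body points lie left of 0 for 36 genes, farthest for *C8b*.

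Cell type markers moved between the genotypes as well. Of 8 hepatocyte markers in the table, 6 were called down in gene bodies and none up, with a median log2 fold change of -1.30. Their summed gene body reads were 342741 and 351000 in the WT libraries and 164991 and 159125 in the KO libraries. All 8 stellate cell markers were called up, with sums of 9638 and 11042 in WT and 21332 and 19635 in KO. Of 8 liver endothelial cell markers 5 were called up and none down, with sums of 58909 and 64326 in WT and 110241 and 98745 in KO. None of 7 Kupffer cell and macrophage markers was called in gene bodies by limma, although 2 passed the adjusted p alone, and their median was 0.22. Markers of leukocytes (2 of 7 up, 1 down) and cholangiocytes (1 of 3 active down, none up) were split, and all 4 erythroid markers in the table were called down, from sums of 762 and 950 in WT to 338 and 296 in KO. The hepatocyte, endothelial, stellate and Kupffer cell markers had reads in every library, whereas *Cldn4* (cholangiocytes) and *Nkg7* (leukocytes) were at 0 in at least 1 library. The part of these shifts in the cell mixture in the changes of complement and coagulation genes was not tested.

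**Figure D2:**
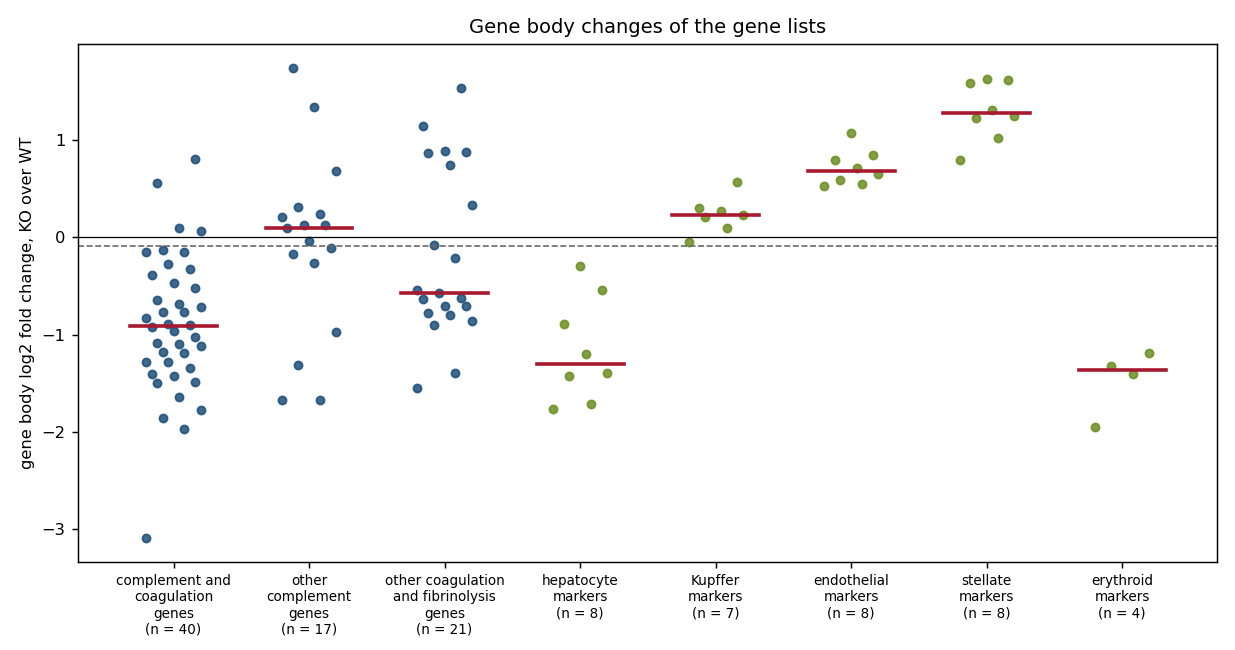
Gene body log2 fold change (KO over WT, y axis) of each active gene in 8 gene lists, with 1 point per gene and a red line at the list's median. The dashed line is the median of all active genes, -0.09. The 40 complement and coagulation genes have a median of -0.92, hepatocyte markers -1.30, endothelial markers 0.68 and stellate markers 1.28.

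The classical pathway is started by antibody through the proteases C1r and C1s, which cut C4 and C2. *C4b*, which encodes complement C4, had gene body reads of 1587 and 1306 in the WT libraries and 890.0 and 859 in the KO libraries, a log2 fold change of -0.72 (SE 0.12, limma adjusted p = 5.44e-05). *C1ra* fell from 371 and 387 in the WT libraries to 279 and 211 in the KO libraries, at -0.64 (SE 0.16, limma adjusted p = 0.003). Both calls rested on single libraries, since the change was -0.58 for *C4b* without WT1, below the fold threshold, and -0.44 (limma adjusted p = 0.12) for *C1ra* without KO2. With gene body scaling *C1ra* was at -0.56 and not called. *C2* had 1018 and 1007 in the WT libraries and 946 and 873 in the KO libraries and was not called, at -0.16 (SE 0.12, limma adjusted p = 0.33). *C1s*, the older symbol of the missing *C1s1*, had 431 and 367 in the WT libraries and 167 and 150.3 in the KO libraries, at -1.32 (SE 0.17, limma adjusted p = 8.61e-07). *C4b* has a near-identical copy, *C4a*, and *C1ra* and *C1s* have close copies too, so reads of these genes could have been split or dropped in mapping.

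The lectin pathway is started by mannose-binding lectins, which carry the proteases MASP1 and MASP2 and recognize sugars on microbes. *Masp2*, whose product cuts C4 and C2, had 2472 and 2320 in the WT libraries and 818 and 896 in the KO libraries. KO libraries were thus at 35.8% of the WT mean, at -1.48 (SE 0.12, limma adjusted p = 6.74e-10). *Masp1* had 7824 and 8300 in the WT libraries and 8702 and 8106 in the KO libraries, at 0.06 (SE 0.11, limma adjusted p = 0.70), and its genotypes overlapped. The genes of the lectins themselves also stood apart. *Mbl1*, on chromosome 14, 41151456 to 41163904, had 687 and 873 in the WT libraries and 388 and 340.1 in the KO libraries, at -1.09 (SE 0.15, limma adjusted p = 2.11e-06). *Mbl2*, on chromosome 19, 30232906 to 30239687, had 458 and 366 in the WT libraries and 383 and 354 in the KO libraries, at -0.15 (SE 0.15, limma adjusted p = 0.46). The log2 ratio of *Mbl1* to *Mbl2* gene body reads was 0.59 and 1.25 in the WT libraries and 0.02 and -0.06 in the KO libraries. The 150 bases before the RefSeq start (GRCm38.p6, read 5′ to 3′ on the gene's strand) are printed for this pair because the genes are paralogs with unlike values. Capitals mark a match on either strand of AGGTCA, the half-site of many nuclear receptors.
*Mbl1* promoter, chr14:41151306-41151455, plus strand: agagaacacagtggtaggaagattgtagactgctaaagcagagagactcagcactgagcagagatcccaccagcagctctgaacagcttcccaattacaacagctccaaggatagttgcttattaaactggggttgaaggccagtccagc
*Mbl2* promoter, chr19:30232778-30232927, plus strand: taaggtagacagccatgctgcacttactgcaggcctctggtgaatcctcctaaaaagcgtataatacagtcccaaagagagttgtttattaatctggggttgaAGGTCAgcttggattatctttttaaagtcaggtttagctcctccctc
Only the *Mbl2* window holds a match, at 47 bases before the start.

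C3 is the component on which all activation pathways meet, and factor B forms the protease of the alternative pathway with it. *C3* had gene body reads of 11604 and 20103 in the WT libraries and 11464 and 11855 in the KO libraries. WT1 lay among the KO libraries and WT2 far above them, and *C3* was not called, at -0.39 (SE 0.16, limma adjusted p = 0.060). Without WT1 the change was -0.79 and passed the call. *Cfb* had 2309.6 and 2527 in the WT libraries and 1386 and 1461 in the KO libraries, without overlap, at -0.76 (SE 0.11, limma adjusted p = 6.96e-06).

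The terminal components C5 to C9 build the membrane attack complex. This group held the strongest fall of all 40 genes. *C8b*, the beta chain of C8, lies on chromosome 4, 104766317 to 104804548 (GRCm38) and had gene body reads of 1056 and 1104 in the WT libraries and 158 and 100.2 in the KO libraries. The KO mean was 12% of the WT mean, at -3.09 (SE 0.18, limma adjusted p = 8.36e-12). *C8a*, the alpha chain gene on the opposite strand, ends 11130 bp from *C8b* and had 4327 and 3714 in the WT libraries and 1545 and 1448 in the KO libraries, at -1.42 (SE 0.11, limma adjusted p = 9.16e-10). The log2 ratio of *C8b* to *C8a* was -2.03 and -1.75 in the WT libraries and -3.28 and -3.84 in the KO libraries. The third chain gene, *C8g*, lies on another chromosome, and its short gene body held few reads, 48.2 and 80 in the WT libraries and 29.7 and 30.4 in the KO libraries. Its change was -1.02 (SE 0.30, limma adjusted p = 0.009), and it lost the call without WT2 (-0.66), without KO1 (-1.01, limma adjusted p = 0.091) and without KO2 (-1.04, limma adjusted p = 0.085). For all chains of C8, gene body reads thus separated the genotypes, KO below WT.

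The promoters of the neighbours *C8b* and *C8a* are shown because their gene bodies had the largest and the third largest fall of this group. Capitals mark matches of AGGTCA (*C8b*, 20 bases before the start) and of GTTAAT, a part of the HNF1 site (*C8a*, 107 bases before the start), on either strand.
*C8b* promoter, chr4:104766167-104766316, plus strand: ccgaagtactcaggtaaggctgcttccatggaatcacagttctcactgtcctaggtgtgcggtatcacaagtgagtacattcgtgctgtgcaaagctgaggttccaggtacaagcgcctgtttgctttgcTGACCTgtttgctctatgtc
*C8a* promoter, chr4:104876399-104876548, minus strand: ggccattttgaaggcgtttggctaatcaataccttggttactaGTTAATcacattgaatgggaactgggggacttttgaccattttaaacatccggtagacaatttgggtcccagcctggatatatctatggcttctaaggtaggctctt

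*Hc*, which encodes C5, had 7214 and 6564 in the WT libraries and 3078 and 2971 in the KO libraries, at -1.19 (SE 0.11, limma adjusted p = 6.41e-09). *C9*, the pore-forming component, had 742 and 569 in the WT libraries and 281 and 187 in the KO libraries, at -1.50 (SE 0.18, limma adjusted p = 3.78e-07). *C9* also had the lowest mean gene body level of the 40 per length. *C6* had 2237 and 1807 in the WT libraries and 2723 and 1696 in the KO libraries, at 0.10 (SE 0.16, limma adjusted p = 0.66), with KO1 above and KO2 below both WT libraries, so 5 of the 6 genes of this group were called down and 1 was not called. The log2 ratio of *C9* to *C6*, which lie far apart on chromosome 15, was -1.59 and -1.67 in WT and -3.27 and -3.18 in KO.

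Complement is held in check by plasma inhibitors. *Cfi*, the protease factor I that inactivates C3b and C4b, had 2494 and 2329 in the WT libraries and 1279 and 1294 in the KO libraries, at -0.91 (SE 0.11, limma adjusted p = 6.3e-07). *Serping1*, the C1 inhibitor, had 894 and 633 in the WT libraries and 516 and 378 in the KO libraries, at -0.77 (SE 0.16, limma adjusted p = 0.000622), and was no longer called without WT1 (-0.52) or without KO2 (-0.54). *C4bp*, a cofactor of factor I, had 1537 and 1456 in the WT libraries and 1109.6 and 1281 in the KO libraries, a change of -0.33 (SE 0.12, limma adjusted p = 0.031) that passed the adjusted p and not the fold threshold. The receptor gene *C5ar1* had 198 and 288 in the WT libraries and 394 and 317 in the KO libraries, at 0.56 (SE 0.18, limma adjusted p = 0.016). Both KO libraries were above both WT libraries, the change was just under the fold threshold, and without WT2 it was 0.83 and passed. The Kupffer cell and macrophage markers beside it had a median of 0.22.

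The fibrinogen chains had the highest gene body levels of all 40 genes per length, and none was called in gene bodies. Per kb of gene body, *Fga* had 2097 and 1723 in the WT libraries and 1413 and 1327 in the KO libraries. Its reads were 13559 and 11142 in the WT libraries and 9136 and 8577 in the KO libraries, at -0.47 (SE 0.12, limma adjusted p = 0.002). *Fgg* had 11278 and 7022 in the WT libraries and 6364 and 6028 in the KO libraries, at -0.52 (SE 0.15, limma adjusted p = 0.006). *Fgb* had 12013 and 8267 in the WT libraries and 8191 and 8232 in the KO libraries, at -0.28 (SE 0.13, limma adjusted p = 0.10), and WT2 differed from the KO libraries by less than it did from WT1. *Fga* and *Fgg* passed the adjusted p and not the fold threshold, and without WT2 their changes were -0.62 and -0.86 and passed both thresholds. The genes lie together on chromosome 3, *Fgg* from 83007724 to 83015056, *Fga* from 83026153 to 83033627 and *Fgb* from 83042246 to 83049863. *F13b*, the carrier subunit of the factor that crosslinks fibrin, had 1213 and 780 in the WT libraries and 365 and 367 in the KO libraries, at -1.41 (SE 0.16, limma adjusted p = 2.28e-07).

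The vitamin K-dependent proteins carry carboxylated glutamates that bind calcium and membranes. Of the 6 genes 5 were called down, and the fall was largest for factor IX. *F9*, the gene affected in haemophilia B, lies on chromosome X, 59999329 to 60030760 and had gene body reads of 1754 and 1421 in the WT libraries and 411 and 395 in the KO libraries, so KO was at 25.4% of WT, at -1.97 (SE 0.13, limma adjusted p = 9.06e-11). *F7*, the protease that tissue factor activates, had 949 and 894 in the WT libraries and 263 and 244 in the KO libraries, at -1.86 (SE 0.14, limma adjusted p = 3.63e-10). *F10*, whose product makes thrombin from prothrombin, had 4517 and 4605 in the WT libraries and 1502 and 1429 in the KO libraries, at -1.64 (SE 0.11, limma adjusted p = 7.43e-11). *F7* and *F10* lie head to tail on chromosome 8 with 1498 bp between them, and the KO libraries of each lay far below its WT libraries.

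The promoters of *F9*, *F7* and *F10* are printed because these genes had the largest falls of the group in both regions. Capitals mark TGACCT, the other strand of AGGTCA, 34 bases before the start of *F7* and 30 before that of *F10*, and ATTGC, the other strand of the C/EBP core GCAAT, 79 bases before that of *F10*. The *F9* window holds none of the motifs searched.
*F9* promoter, chrX:59999314-59999463, plus strand: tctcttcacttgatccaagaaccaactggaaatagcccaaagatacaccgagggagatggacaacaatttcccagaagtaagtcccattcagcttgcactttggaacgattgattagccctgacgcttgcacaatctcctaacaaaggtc
*F7* promoter, chr8:13025884-13026033, plus strand: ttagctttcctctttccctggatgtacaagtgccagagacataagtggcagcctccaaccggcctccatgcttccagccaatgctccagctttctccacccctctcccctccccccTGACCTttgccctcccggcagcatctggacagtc
*F10* promoter, chr8:13037158-13037307, plus strand: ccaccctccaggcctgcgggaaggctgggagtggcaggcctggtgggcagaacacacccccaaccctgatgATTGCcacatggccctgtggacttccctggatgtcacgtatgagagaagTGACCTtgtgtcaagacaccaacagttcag

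*F2*, prothrombin, had 3840.1 and 4559 in the WT libraries and 1852 and 1994 in the KO libraries, at -1.12 (SE 0.11, limma adjusted p = 3.73e-08). *Proc*, protein C, which inactivates factors V and VIII, had 2239.6 and 1808 in the WT libraries and 1050.2 and 1124 in the KO libraries, at -0.89 (SE 0.12, limma adjusted p = 2.9e-06). *Pros1*, protein S, its cofactor, had 2795 and 2282 in the WT libraries and 2493 and 2126 in the KO libraries, at -0.13 (SE 0.12, limma adjusted p = 0.41), and was the only gene of the group not called. KO1 lay between the WT libraries for *Pros1*, whereas both KO libraries lay below WT for the other 5 genes.

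Factors V and VIII are homologous cofactors of the clotting proteases, and their genes went opposite ways. *F5* had 5780.3 and 5202 in the WT libraries and 2916 and 2851 in the KO libraries, at -0.93 (SE 0.11, limma adjusted p = 2.79e-07). *F8*, the gene affected in haemophilia A, lies on chromosome X, 75170344 to 75382738 and had 2983 and 2710 in the WT libraries and 5682 and 4341 in the KO libraries. The KO mean of *F8* was 176% of the WT mean, at 0.80 (SE 0.12, limma adjusted p = 1.08e-05). It was the only one of the 40 called up, and leaving out single libraries did not end this call in gene bodies. Its gene body change lay within the 0.52 to 1.08 spanned by the 8 liver endothelial cell markers, whose part was not tested. The log2 ratio of *F9* to *F8*, partners in 1 enzyme complex, was -0.77 and -0.93 in WT and -3.79 and -3.46 in KO. Both genes are X-linked, and the part of any unlike mix of sexes in these values was not tested.

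The contact system starts clotting on negatively charged surfaces and releases bradykinin. All 4 of its genes were called down. *F11*, on chromosome 8, 45240659 to 45262055, had 3336 and 3321 in the WT libraries and 1107 and 858 in the KO libraries, at -1.77 (SE 0.12, limma adjusted p = 1.42e-10). *Klkb1*, prekallikrein, is 4632 bp away on the same strand and had 3497 and 2359 in the WT libraries and 1158 and 1201 in the KO libraries, at -1.28 (SE 0.14, limma adjusted p = 9.86e-08). *Kng1*, the kininogen that carries both, had 7124 and 4910 in the WT libraries and 2781 and 2116 in the KO libraries, at -1.29 (SE 0.14, limma adjusted p = 1.75e-07). *F12*, which starts the system, had 1384 and 1499 in the WT libraries and 749 and 875 in the KO libraries, at -0.83 (SE 0.12, limma adjusted p = 7.9e-06). KO libraries lay below WT libraries for each of them. The promoter of *F11* is shown because this gene had the smallest adjusted p in the promoter-proximal region, and its window holds none of the motifs searched.
*F11* promoter, chr8:45262032-45262181, minus strand: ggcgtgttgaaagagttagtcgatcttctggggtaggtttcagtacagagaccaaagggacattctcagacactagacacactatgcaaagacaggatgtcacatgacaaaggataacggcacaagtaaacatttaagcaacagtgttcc

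Thrombin is blocked by serpins. *Serpinc1*, antithrombin, had 8015 and 7294 in the WT libraries and 4479 and 5053 in the KO libraries, at -0.68 (SE 0.11, limma adjusted p = 2.36e-05), which without KO1 was -0.60 and just under the fold threshold. *Serpind1*, heparin cofactor II, had 1955 and 1584 in the WT libraries and 653 and 732 in the KO libraries, at -1.35 (SE 0.13, limma adjusted p = 1.3e-08). In fibrinolysis all 3 genes were called down. *Plg*, plasminogen, which had the highest WT mean of gene body reads of the 40 genes, had 24267 and 17814 in the WT libraries and 9124 and 9260.1 in the KO libraries, at -1.18 (SE 0.13, limma adjusted p = 1.19e-07). *Serpinf2*, the inhibitor of plasmin, had 4015 and 2868 in the WT libraries and 1563 and 1600.3 in the KO libraries, at -1.10 (SE 0.13, limma adjusted p = 3.4e-07). *Cpb2*, the carboxypeptidase that protects fibrin, had 2655 and 2585 in the WT libraries and 1359 and 1330.0 in the KO libraries, at -0.96 (SE 0.11, limma adjusted p = 2.17e-07). Plasminogen and both antagonists of fibrinolysis thus fell side by side.

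**Figure D3:**
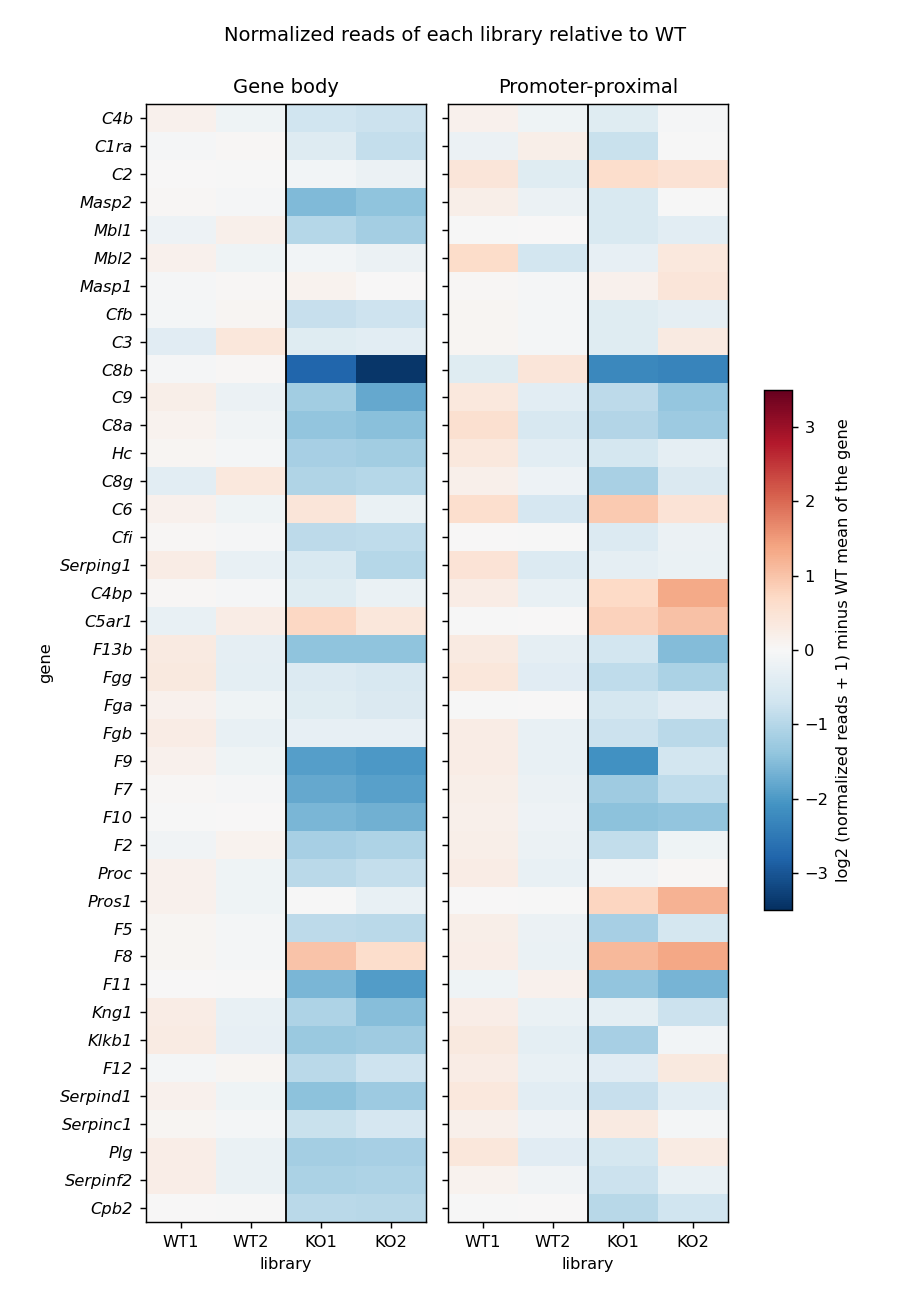
Normalized reads of the 40 genes (rows, in the order of the plot by role) in each of the 4 libraries (columns), as log2(normalized reads + 1) minus the mean of both WT libraries of that gene. In gene bodies the KO columns are blue for most genes and red for *F8* and *C5ar1*, and in promoter-proximal regions KO1 and KO2 resemble each other less.

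The order of levels among the 40 genes was much alike in both genotypes. Mean gene body density ran from 1640.1 normalized reads per kb for *Fga* to 8.53 for *C9*. The first 4 genes were *Fga*, *Fgb*, *Fgg* and *C3* in WT and in KO. *Fgb* (WT mean 1563 per kb) and *Fgg* (1487) were ordered in each library but lay within the spread between WT libraries. *C8b* moved from place 36 to place 40, *F7* from 20 to 33 and *F11* from 14 to 20, whereas *Masp1* moved from 19 to 10. Across the 40 genes Spearman's rho between the WT and KO densities was 0.92, a description over genes that share libraries and gene lengths. The densities of single libraries were 14.2 and 10.9 in the WT libraries and 5.39 and 3.58 in the KO libraries normalized reads per kb for *C9*.

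The spread between libraries of 1 genotype was not the same. Over the 40 genes the median absolute log2 difference in gene body reads between WT1 and WT2 was 0.28, and that between KO1 and KO2 was 0.10. Over all active genes these medians were 0.14 and 0.14. WT1 was above WT2 for 29 of the 40 genes. The differences ran from -0.79 for *C3*, higher in WT2, to 0.68 for *Fgg*, higher in WT1. With the sign kept, the median log2 difference was 0.14 for WT1 over WT2 and 0.05 for KO1 over KO2, and between -0.97 and -0.86 for a KO over a WT library in the 4 possible pairs.

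In promoter-proximal regions, 11 of the 40 genes were called down and 2 up, where 2.20% of all active genes were called down and 25.8% up. The active genes as a whole had a median log2 fold change of 0.56 in this region, and the 40 genes had -0.45. Relative to the median of active genes, 35 of the 40 lay below. The median of the 40 genes depended on which single libraries were compared. It was lowest, at -0.83, when KO1 was set against WT1, a pair in which active genes had 0.34. It was highest, at -0.08, when KO2 was set against WT2, a pair in which active genes had 0.79. In the latter pair 19 of the 40 genes were higher in KO2 and 21 lower. The KO libraries themselves differed, with a median log2 difference of KO1 from KO2 of -0.36 over active genes. With median-of-ratios scaling within the region, which sets the median of active genes close to 0, 25 of the 40 were called down and none up, where 7.41% of active genes were called down and 4.99% up. The KO libraries were both below the WT libraries for 20 of the 40 genes and both above for 6, against 6.72% and 61.9% of active genes, and 31 had a change below 0, against 15.8%. On recovered reads edgeR called 10 members down and 2 up (2.09% and 25.6% of active genes), and DESeq2 6 and 1 (1.42% and 22.0%). The calls were less stable than in gene bodies. Promoter-proximal counts were mostly lower than gene body counts, and the part of this in the lost calls was not tested. The genes called down numbered 2 without WT1, 2 without WT2, 6 without KO1 and 3 without KO2, and those called up 0, 0, 1 and 0. Of active genes, 0.732%, 0.811%, 1.43% and 0.653% were called down in the same order, and 5.53%, 3.88%, 27.7% and 2.51% up.

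Of the 11 genes, 9 were also called down in the gene body, namely *C8a*, *C8b*, *C9*, *F13b*, *F7*, *F9*, *F10*, *F5* and *F11*. *F11* had promoter-proximal reads of 493 and 614 in the WT libraries and 210.0 and 178 in the KO libraries, at -1.51 (SE 0.31, limma adjusted p = 4.13e-05). Its KO libraries were far below its WT libraries, and it lost the call only without WT2 among the libraries (-1.35, limma adjusted p = 0.070). *C8b* had 13.8 and 26 in the WT libraries and 3.18 and 3.04 in the KO libraries, at -2.28 (SE 0.49, limma adjusted p = 0.000102). These values came from 38 reads in WT and 5 in KO, a ratio of KO to WT of 0.154 with a 95% exact binomial interval of 0.0473 to 0.391 that covers counting error only. The call of *C8b* held without each of the libraries.

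*F10* had promoter-proximal reads of 82.6 and 65 in the WT libraries and 26.5 and 27.3 in the KO libraries, at -1.41 (SE 0.39, limma adjusted p = 0.003). *F7* had 273 and 202 in the WT libraries and 98.7 and 126 in the KO libraries, at -1.07 (SE 0.33, limma adjusted p = 0.009). *F9* had 26.4 and 18 in the WT libraries and 4.24 and 13.7 in the KO libraries, at -1.38 (SE 0.46, limma adjusted p = 0.015), from 41 reads in WT and 13 in KO (ratio 0.371, 95% exact interval 0.182 to 0.706). For each of the genes both KO libraries were lower, yet *F9* and *F7* were not called without KO1, at -0.64 and -0.89, and *F10* and *F7* were not called without KO2, at -1.43 and -1.24. Without either WT library none of *F7*, *F9* and *F10* was called, with changes between -1.64 and -0.85.

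The other genes called down in both regions were *C8a*, *C9*, *F13b* and *F5*. *C8a* had 40.2 and 18 in the WT libraries and 12.7 and 10.6 in the KO libraries, at -1.15 (SE 0.44, limma adjusted p = 0.036). *C9* had 27.5 and 16 in the WT libraries and 10.6 and 7.59 in the KO libraries, at -1.14 (SE 0.45, limma adjusted p = 0.044). *F13b* had 40.2 and 26 in the WT libraries and 20.2 and 10.6 in the KO libraries, at -1.09 (SE 0.42, limma adjusted p = 0.041). The 3 genes shared the direction of their gene bodies. Each lost the promoter-proximal call with the replicate block and with DESeq2. Each also lost it without WT1, WT2 or KO2, with changes between -1.70 and -0.59 over these settings. Without KO1, *C8a* (-1.27) and *C9* (-1.36) lost it too. *F5* had 422 and 319 in the WT libraries and 162 and 238 in the KO libraries, at -0.90 (SE 0.31, limma adjusted p = 0.021), and lost the call under each library left out, with changes between -1.17 and -0.62.

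The fibrinogen genes showed the reverse order of regions. *Fgg* had promoter-proximal reads of 718 and 409 in the WT libraries and 293 and 251 in the KO libraries, at -1.0 (SE 0.30, limma adjusted p = 0.008), and *Fgb* had 484 and 334 in the WT libraries and 239 and 209.5 in the KO libraries, at -0.84 (SE 0.31, limma adjusted p = 0.029). Both were called here and not in the gene body. *Fga* had 1263 and 1293 in the WT libraries and 832 and 973 in the KO libraries, at -0.51 (SE 0.28, limma adjusted p = 0.15), and was not called. *Fgg*, *Fga* and *Fgb* were the only 3 of the 40 genes whose promoter-proximal log2 fold change was below that of the gene body. *Fgb* was not called without WT1, WT2 or KO2, at -0.58, -1.11 and -0.75, and *Fgg* was not called without WT1 or KO2, at -0.59 and -0.89.

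The genes called up were *Pros1* and *F8*. *Pros1* had promoter-proximal reads of 99.8 and 97 in the WT libraries and 167 and 229 in the KO libraries, at 0.98 (SE 0.33, limma adjusted p = 0.019), beside a gene body that was not called. *F8* had 12.6 and 9 in the WT libraries and 24.4 and 28.8 in the KO libraries, at 1.24 (SE 0.44, limma adjusted p = 0.025), from a few reads. Relative to the median of active genes these changes were 0.42 and 0.68, and neither was called with scaling within the region or with the replicate block. Leaving out WT1, WT2 or KO2 ended both calls, with *Pros1* between 0.75 and 1.0 and *F8* between 1.02 and 1.46, and *F8* was not called without KO1 either. The *Pros1* window is rich in G and C, at 76.7% of 150 bases, the highest share of the 27 member promoters matched, and is shown for that contrast with those above.
*Pros1* promoter, chr16:62854157-62854306, plus strand: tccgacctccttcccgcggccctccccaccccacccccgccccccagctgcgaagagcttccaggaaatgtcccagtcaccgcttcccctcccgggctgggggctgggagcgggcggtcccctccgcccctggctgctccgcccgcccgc

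**Figure D4:**
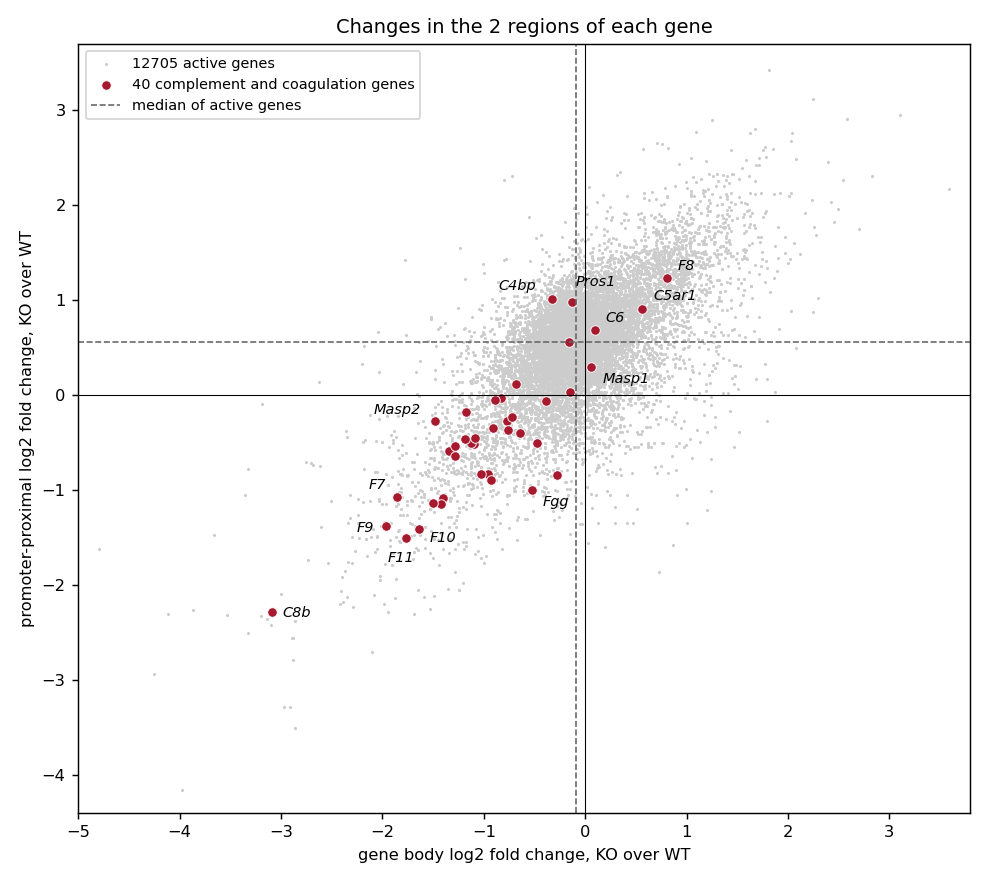
Promoter-proximal (y axis) against gene body (x axis) log2 fold change, KO over WT, for 12705 active genes (grey) and the 40 complement and coagulation genes (red). Dashed lines mark the medians of active genes, -0.09 for gene bodies and 0.56 for promoter-proximal regions, and 35 of the 40 red points lie below the horizontal one.

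Across the 40 genes the changes in both regions were related, with Pearson's r at 0.86 and Spearman's rho at 0.79, against Pearson's r of 0.66 over all active genes. These are descriptions across genes of the same libraries. For 37 of the 40 genes the promoter-proximal change lay above the gene body change, as it did for 88.8% of active genes. The pausing index divides promoter-proximal reads by those of the gene body. It had a median log2 fold change of 0.53, against 0.61 over active genes. The members *Masp2* and *C4bp*, were called up (2 of 40) and none down, where 11.2% of active genes were called up and 0.543% down. With scaling within each region no member was called, and of active genes 0.0157% were called up and 0.0945% down.

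*Masp2* had promoter-proximal reads of 82.6 and 63 in the WT libraries and 49.9 and 71.4 in the KO libraries, which overlapped between the genotypes while its gene body fell, and its pausing index changed by 1.21 (SE 0.42, limma adjusted p = 0.042). *C4bp* had promoter-proximal reads of 16.1 and 11 in the WT libraries and 22.3 and 34.9 in the KO libraries, higher in both KO libraries, and a pausing index change of 1.34 (SE 0.45, limma adjusted p = 0.036). Neither was called with scaling within the region, with the replicate block or without WT1, WT2 or KO2. Without those libraries *Masp2* was at 1.36, 1.07 and 1.02 and *C4bp* at 1.56, 1.13 and 1.13. Without KO1, 9 of the 40 were called up, against 36% of active genes.

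The remaining 27 genes had no promoter-proximal call. Their changes ran from -0.83 for *C8g* to 1.01 for *C4bp*. *Mbl2* had 381 and 154 in the WT libraries and 197 and 311 in the KO libraries, with an SE of 0.31. *Cfi* had 187 and 187 in the WT libraries and 135 and 161 in the KO libraries, with an SE of 0.33. The SEs of these 2 genes thus did not follow their own spread between libraries. *Serpinf2*, *Cfb* and *Cfi* were among those in which both KO libraries were nonetheless lower, and in *C2*, *Masp1*, *C4bp* and *C5ar1* both were higher. *Proc* and *F12* were at -0.05 and -0.03 while their gene bodies fell, and *Plg* was at -0.18 with a KO2 value of 424 between the WT libraries.

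Further genes of the same systems were split. Of 26 other complement genes 17 were active. In gene bodies 4 were called down and 3 up, where 11.4% of active genes were called down and 10.4% up. The falls included *Vtn*, vitronectin, an inhibitor of the terminal complex, at -1.68 (SE 0.14, limma adjusted p = 2.01e-09), and *Cfhr2*, a relative of factor H, at -1.32 (SE 0.12, limma adjusted p = 1.22e-08). The rises were *Colec11* and *Colec10*, collectins that feed the lectin pathway, and *Cd55*, a membrane inhibitor. *Colec11* had gene body reads of 443 and 522 in the WT libraries and 1618 and 1608 in the KO libraries, at 1.74 (SE 0.13, limma adjusted p = 2.48e-10). *Colec10* was at 1.34 (SE 0.12, limma adjusted p = 4.64e-09) and *Cd55* at 0.68 (SE 0.12, limma adjusted p = 9.61e-05). Soluble lectins therefore stood on both sides, *Mbl1* down and *Colec10* and *Colec11* up.

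Of 25 other coagulation and fibrinolysis genes 21 were active. In gene bodies 10 were called down and 6 up, against the same 11.4% and 10.4% of active genes. The largest falls were those of *Proz*, a vitamin K-dependent cofactor, at -1.55 (SE 0.11, limma adjusted p = 1.42e-10), *Cpn2*, a subunit of the carboxypeptidase that trims kinins and anaphylatoxins, at -1.40 (SE 0.12, limma adjusted p = 3.83e-09), and *Hgfac*, a protease activated by thrombin, at -0.90 (SE 0.14, limma adjusted p = 1.04e-05). *Plau*, urokinase, had gene body reads of 51.6 and 54 in the WT libraries and 152 and 158 in the KO libraries, at 1.53 (SE 0.22, limma adjusted p = 5.3e-06). *Procr*, the receptor of protein C, was at 1.15 (SE 0.40, limma adjusted p = 0.027) on few reads, and *Plaur*, the urokinase receptor, at 0.89 (SE 0.14, limma adjusted p = 2.29e-05). The genes called up here, *Vwf*, *Thbd*, *Tfpi*, *Procr*, *Plau* and *Plaur*, encode mostly proteins of vessel walls and cell surfaces. The endothelial and stellate markers given above were higher in the same libraries, and their part in these rises was not tested.

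Some members are neighbours. *Cfb* begins 87 bp after the end of *C2* on the same strand of chromosome 17, and a readthrough gene model covers both. The log2 ratio of *Cfb* to *C2* gene body reads was 1.18 and 1.33 in WT and 0.55 and 0.74 in KO. The ratio of *F7* to *F10* was close to constant, at -2.25, -2.36, -2.51 and -2.54 in the same order. That of *F11* to *Klkb1* was -0.07, 0.49, -0.06 and -0.48, so the genotypes were not apart in the same way. The annotated span of *Masp2* overlaps *Srm* on the same strand.

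Promoter letters were compared as a description. A RefSeq promoter whose start lay within 100 bp of that of the transcript was matched to 27 of the 40 genes, and the 250 bases before the start were searched on both strands. AGGTCA occurred in 10 of the 27 (37%), against 11.2% of the promoters of active genes and 14% of all 32851 promoters. GTTAAT occurred in 7 (25.9%), against 4.25% and 6.43%. TATAAA occurred in 2 (7.41%), against 6.71% and 12.4%, and GCAAT in 6 (22.2%), against 18.2% and 23.1%. Matches of different motifs did not overlap in the member promoters. The median share of G and C in the last 150 bases was 48.7% in member promoters and 62% in those of active genes.

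The deposited list of 2282 intergenic enhancers, made from reads pooled over all libraries, gave no value per library. Of the 40 genes, 4 (*Fgg*, *Mbl1*, *Masp1* and *Proc*) were the gene closest to an enhancer (10%), against 10.9% of active genes. An enhancer within 50 kb was listed for 8 (20%), against 9.83%. The enhancer nearest to *Fgg* lies on chromosome 3 from 83001761 to 83004015, 3881 bp from its start, and lies within 50 kb of *Fga* and *Fgb* as well.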

How the data were processed

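Liver nuclei of day 14 mice were run on with biotinylated nucleotides. The authors used cutadapt for trimming and Bowtie2 for alignment (mm10), dropped reads that were ribosomal or mapped poorly, and counted the rest per transcript. The WT2 columns hold read counts as deposited, its factor being 1. The other columns hold deposited signal, namely counts times a factor of 1.15 (WT1), 1.06 (KO1) or 1.52 (KO2), and densities are deposited as signal per bp. Division by the factors gave whole reads for 100% of 41640 values per library (tolerance 0.05 reads).

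A gene was taken as active when it had any promoter-proximal read and its gene body averaged more than 4 normalized reads per kb. Log2 values plus a pseudocount of 1 were compared with limma 3.58.1 (trend, R 4.3.3), fold changes being on that scale. P-values were adjusted by the Benjamini-Hochberg procedure over the 12705 active genes, and counts were retested with edgeR 4.0.16 and DESeq2 1.42.0. The procedure was tested on simulated data.

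Members and lists were chosen with earlier results of these data known. By rule, per-library values are given for members called in any measure and for those of highest and lowest gene body density, and of other lists the 3 largest calls per direction are named, except for 1 gene not reported here. Values of uncalled members were added to complete their roles. Alternatives were other pseudocounts, filters, scalings and transcripts, a replicate block and leaving out each library. Promoters and positions are from RefSeq and GENCODE (GRCm38). Python 3.11.15, numpy 2.4.6, pandas 2.3.3, scipy 1.17.1 and matplotlib 3.10.9 were used.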

Additional observations from a re-analysis of the deposited data

How the results depend on the processing

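In promoter-proximal regions members had as few as 2 recovered reads in a 50 bp window, and the part of depth in the spread of these values was not tested. The fall in gene bodies kept its direction under all alternatives run. The median gene body log2 fold change of members was -0.83 with median-of-ratios scaling within the region or from gene bodies and -0.84 with TMM scaling, against -0.92. With these 3 scalings and with the adjusted p alone, 2 members were called up in gene bodies instead of 1, and without the filter on activity 12 were called down and 0 up. In promoter-proximal regions, 25 members were called down and 0 up, with a median of -1.02, under either scaling within the region. Of active genes, 7.41% and 7.47% were called down and 4.99% and 5.02% up with median-of-ratios and TMM scaling. With scaling from gene bodies 6 members were called down and 2 up (1.51% and 23.8% of active genes). DESeq2, in which *C8b* had no adjusted p, gave 6 and 1 (1.42% and 22.0%). Without the filter 0 of 20642 genes were called in this region in either direction, so members also gave 0 and 0. For the pausing index, 0 members were called up with a pseudocount of 0.1 (7.82% of active genes) and without the filter (0% of all genes). With either scaling within the region 0 were called up as well (0.0157% and 0.0315% of active genes). A pseudocount of 10 gave 7 of 40 called up, where 18.8% of active genes were called up. 

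The numbers of the replicates were not treated as pairs. Deviations of same-numbered libraries had a correlation of -0.11 in promoter-proximal regions and 0.02 in gene bodies. With the replicate block, 6 members were called down and 0 up in promoter-proximal regions and 0 up for the pausing index (1.39%, 13.9% and 1.03% of active genes), and gene body calls were the same 29. Crossing the numbers, a choice made after seeing the data, gave 12 down and 4 up in promoter-proximal regions and 7 up for the pausing index, where 3.14%, 38.3% and 32.4% of active genes were called. Leaving out single libraries gave 25 to 29 members down and 1 to 2 up in gene bodies (median -0.97 to -0.86), 2 to 6 down and 0 to 1 up in promoter-proximal regions (median -0.62 to -0.25), and 0 to 9 up for the pausing index. Counting *C1s* as a member, also added after seeing the data, could move a count only by its own call. That call was down in gene bodies and none in promoter-proximal regions and for the pausing index. The causes of these differences were not tested.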

Other observations

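The proteins that make vitamin K-dependent factors functional were looked at after their values were seen. *Ggcx*, the carboxylase that modifies prothrombin, factors VII, IX and X and proteins C and S, had gene body reads of 1325 and 1395 in the WT libraries and 761 and 733 in the KO libraries, at -0.86 (SE 0.12, limma adjusted p = 3.07e-06). Its pausing index changed by 1.33 (SE 0.38, limma adjusted p = 0.015). *Vkorc1*, which recycles vitamin K and is the target of warfarin, had 246 and 154 in the WT libraries and 119 and 134 in the KO libraries, at -0.62 (SE 0.21, limma adjusted p = 0.022), and a pausing index change of 1.19 (SE 0.39, limma adjusted p = 0.031). Both genes thus fell in the gene body together with most of the factors whose products they serve, *Vkorc1* by just over the fold threshold. They were the 2 of 21 active genes of their list called up for the pausing index, a share near the 11.2% of all active genes. With scaling within each region 0.0157% of active genes were called up for the pausing index, and the values of *Ggcx* and *Vkorc1* in that setting are not given here.

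The cargo receptor that carries factors V and VIII out of the endoplasmic reticulum is built from *Lman1* and *Mcfd2*. *Lman1* had 1639.5 and 1816 in the WT libraries and 1283 and 1052 in the KO libraries, at -0.57 (SE 0.12, limma adjusted p = 0.000623), and passed the adjusted p and not the fold threshold. *Mcfd2* had 1078 and 1377 in the WT libraries and 1061 and 1251 in the KO libraries, at -0.08 (SE 0.13, limma adjusted p = 0.66), and was not called. The C1q chains, which start the classical pathway and are made by macrophages, were not called in gene bodies, at -0.04 for *C1qa*, 0.23 for *C1qb* and 0.10 for *C1qc*. In promoter-proximal regions *C1qa* was called up, at 0.95 (SE 0.29, limma adjusted p = 0.008), as were 25.8% of active genes. *C1qb*, at 0.78, and *C1qc*, at 0.005, were not called there.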
